A study of Mus musculus with 18 samples.

Results

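Open chromatin was compared between normal mouse NKT cells and normal mouse T cells by ATAC-seq, in which the Tn5 transposase cuts and tags accessible DNA. The comparison used 6 of the 18 libraries of the series, namely the 3 NKT libraries and the 3 T libraries. Both groups were wild-type C57BL/6 cells with no treatment given, and each library was made from 10000 FACS-sorted cells. NKT cells were sorted as CD3+ cells that bind a CD1d tetramer loaded with alpha-galactosylceramide, and their label names the liver as tissue although their titles end in "Sp". T cells were sorted as CD3+ Thy1+ cells of the spleen, a gate that holds CD4 and CD8 cells together. The age of the mice is not stated, nor is whether each library came from its own animal, so p-values here rest on a spread among libraries that may be technical. Cell type and tissue differ together and cannot be told apart in any result here. The other 12 libraries were 9 lymphomas grown from p53-deficient T cells and 3 NK-cell libraries.

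Invariant NKT cells are T cells whose receptor pairs one fixed alpha chain with a few beta chains and sees lipids on CD1d. They leave the thymus already able to make cytokines, under the transcription factor PLZF (encoded by Zbtb16), and mouse NKT cells are commonly divided into NKT1, NKT2 and NKT17 subsets, of which the first is marked by T-bet and the next by high PLZF. Most NKT cells of mouse liver are of the NKT1 kind. Splenic T cells are mostly naive and recirculate through lymph nodes by way of CCR7.

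The count table holds peaks of 500 bp on the 19 autosomes of the mm10 build, of which 38605 had enough counts to test and 22619 did not. Total counts in peaks were 1433904, 8268896 and 9097014 in NKT libraries 1 to 3, against 979441, 1245437 and 2358023 in T libraries 1 to 3. NKT library 1 stood apart from its group in having no count at 16.6% of peaks. The Pearson correlation of log2 CPM across peaks was between 0.89 and 0.97 within NKT libraries, between 0.78 and 0.83 within T libraries and between 0.57 and 0.71 across the groups. Levels are given in CPM, counts brought to a common library total. For a peak, a library's total was its counts in the tested peaks, scaled by edgeR's TMM factor. For a gene, the total was its counts summed over the tested genes, scaled in the same way. The total counts given above cover all peaks, without this scaling, and are therefore not the basis of these levels. A gene's count is the sum over the peaks that carry its symbol in the deposited annotation.

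Of the 38605 tested peaks, 5169 were higher in NKT cells (13.4%) and 4791 were lower (12.4%) at a Benjamini-Hochberg adjusted p below 0.05 in edgeR's quasi-likelihood test, together 25.8%. Of 17504 genes tested, 2057 were higher (11.8%) and 2053 were lower (11.7%), together 23.5%. These shares are the background for the counts of named groups that follow. With a log2 fold change of at least 1 asked for as well, 3901 peaks were higher and 3785 were lower, and 660 genes were higher and 1098 were lower. A fit over the 9 normal libraries, with its own filter, scaling and spread, called 3332 higher and 2503 lower peaks. One over all 18 libraries called 2130 higher and 1072 lower. Each main call present in those 2 fits kept its sign. Without NKT library 2, 2905 peaks and 1313 genes were called lower, without NKT library 3, 3063 peaks were, and without T library 2, 1342 genes were. The sign of the differences moved with edgeR's average log2 CPM over the 6 libraries. In the lowest of 10 classes by this level the median log2 fold change was −0.82, with 71 higher and 1241 lower. In class 8 it was 0.18, with 967 higher and 268 lower. Deeper libraries weigh more in that average, and NKT libraries 2 and 3 were the deepest. Peaks lower in NKT cells therefore tend to fall into lower classes by construction, and the part of this in the trend was not tested.

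**Figure D1:**
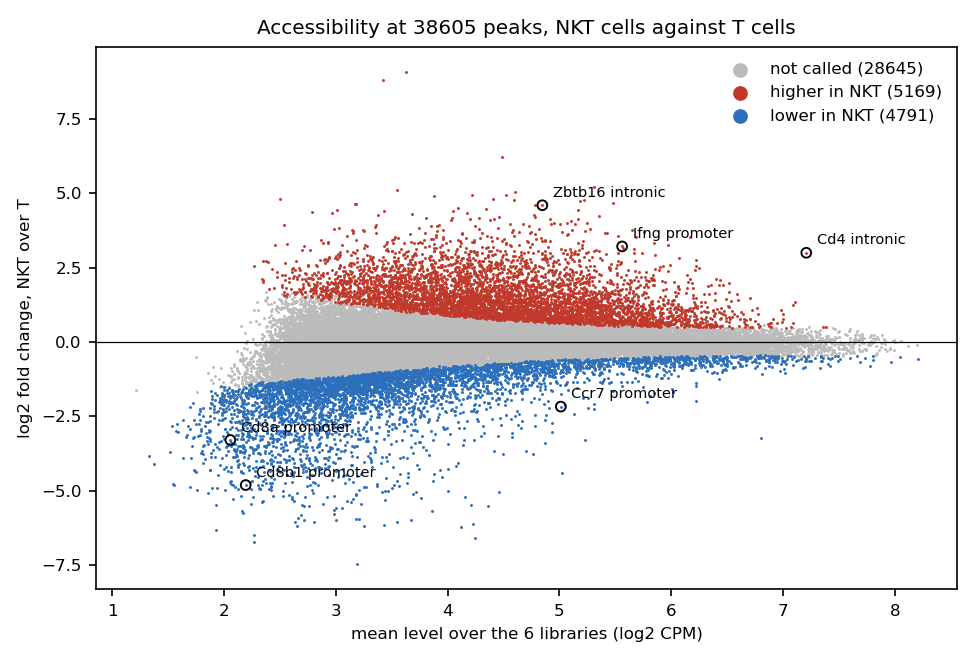
Each point is one of the 38605 tested peaks. The x axis is edgeR's average log2 CPM, in which deeper libraries weigh more, and the y axis is the log2 fold change, NKT over T. Red peaks were called higher in NKT cells and blue ones lower. Circles mark 6 of the peaks named in the text, between Zbtb16 at 4.59 and Cd8b1 at −4.81; the 2 highest red points had no count in any T library, so their fitted fold change gives no size.

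The difference lay more in distal peaks than at promoters. Promoter peaks were called in 15.4% of 16334 tested, with 1061 higher and 1454 lower. Intronic peaks were called in 35.1% of 10803, with 2221 higher and 1574 lower, and intergenic peaks in 38.0% of 4881, with 964 higher and 893 lower. The remaining classes were between these values, with 29.9% of peaks flanking genes, 27.1% of 3′ UTR peaks, 25.6% of exonic peaks and 16.1% of 5′ UTR peaks called. The called promoter peaks also had the smallest median absolute log2 fold change of the 7 classes, 1.04, against 1.62 at called intergenic peaks.

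The 250 bases before the gene start are shown for 4 effector genes whose promoter peak was higher in NKT cells and for Cd8a, whose promoter peak was lower, because each window overlaps that called peak. Ifng encodes interferon gamma, Gzmb encodes granzyme B, Xcl1 encodes a chemokine that draws dendritic cells, Nkg7 encodes a cytotoxic granule protein, and Cd8a encodes the CD8 alpha chain. The windows are from RefSeq on GRCm38.p6, 5′ to 3′ on the gene's strand, at chr10:118440796-118441045 for Ifng (plus strand), chr14:56262335-56262584 for Gzmb (minus), chr1:164935523-164935772 for Xcl1 (minus), chr7:43436888-43437137 for Nkg7 (plus) and chr6:71373177-71373426 for Cd8a (plus). Capitals mark matches on either strand to 9 short motifs named for the families that bind such letters.
Ifng: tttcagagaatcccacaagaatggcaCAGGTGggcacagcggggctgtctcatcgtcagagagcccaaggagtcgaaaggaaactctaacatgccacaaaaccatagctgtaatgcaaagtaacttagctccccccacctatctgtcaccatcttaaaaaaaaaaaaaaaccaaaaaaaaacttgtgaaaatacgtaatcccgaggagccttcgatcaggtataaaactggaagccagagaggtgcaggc
Gzmb: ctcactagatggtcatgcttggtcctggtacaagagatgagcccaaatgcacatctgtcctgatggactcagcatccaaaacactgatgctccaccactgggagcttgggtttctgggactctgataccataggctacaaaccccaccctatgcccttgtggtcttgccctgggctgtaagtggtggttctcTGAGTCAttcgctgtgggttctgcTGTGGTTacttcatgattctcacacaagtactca
Xcl1: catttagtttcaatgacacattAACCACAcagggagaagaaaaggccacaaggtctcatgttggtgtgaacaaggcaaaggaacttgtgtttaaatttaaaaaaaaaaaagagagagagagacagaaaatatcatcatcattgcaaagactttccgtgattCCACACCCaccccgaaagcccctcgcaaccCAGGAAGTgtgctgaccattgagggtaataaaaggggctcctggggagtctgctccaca
Nkg7: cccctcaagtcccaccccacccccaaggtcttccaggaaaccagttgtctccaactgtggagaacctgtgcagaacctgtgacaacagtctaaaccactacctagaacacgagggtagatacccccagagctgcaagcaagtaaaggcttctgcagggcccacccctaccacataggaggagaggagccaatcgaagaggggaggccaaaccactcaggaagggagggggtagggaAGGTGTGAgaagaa
Cd8a: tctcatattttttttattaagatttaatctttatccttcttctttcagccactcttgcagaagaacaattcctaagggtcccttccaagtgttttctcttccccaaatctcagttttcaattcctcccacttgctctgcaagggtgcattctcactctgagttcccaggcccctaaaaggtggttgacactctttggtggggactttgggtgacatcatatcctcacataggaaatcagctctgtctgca

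The letters searched were AGGTGTGA for T-box factors, TGTGGTT for RUNX, CAGGAAGT for ETS, TGANTCA for AP-1, CAGGTG for the E-box, AGATAA for GATA factors, AGGTCA for ROR, GGGTGTGG for KLF and TCAAAGG for TCF/LEF. Ifng held one E-box whose first base lies 224 bases before the start. Gzmb held an AP-1 match at 58 and a RUNX match at 34 bases before its start. Xcl1 held a RUNX match at 228, a KLF match at 89 and an ETS match at 59 bases before its start. Nkg7 held the T-box letters at 14 bases before its start, and Cd8a held no match. The window of Cxcr6, not printed, overlaps a promoter peak that was higher in NKT cells (1.05) and held no match either. A match is only a run of letters.

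Windows of this kind overlapped a tested promoter peak by at least 100 bases for 8267 of the 13884 genes with such a peak. The T-box letters were in 7 of the 326 windows over peaks higher in NKT cells (2.15%). They were in 2 of the 740 windows over lower peaks (0.27%) and in 0.653% of all 8267. The RUNX letters were in 6.75% of windows over higher peaks, against 2.03% over lower ones and 3.11% of all. The AP-1 letters were in 9.20%, against 3.51% and 3.64%, and the ETS letters in 5.83%, or 19 of 326, against 24 of 740 over lower peaks and 3.00% of all. The TCF/LEF letters ran the other way, in 5 windows over higher peaks (1.53%), against 23 over lower peaks (3.11%) and 2.72% of all. The E-box was in 19.9%, 16.2% and 14.6%, GATA in 6.13%, 4.46% and 4.45%, ROR in 10.4%, 10.1% and 9.39%, and KLF in 5.21%, 5.27% and 3.67% of the higher, lower and all windows. The same windows differed in base composition, with a median GC content of 58.8% over higher peaks, 62.4% over lower peaks and 61.6% over all, and its part in the motif shares was not tested. Among all 32814 windows of the reference table, open or not, the T-box share was 1.12% and the RUNX share 4.39%.

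Markers of the sorted populations were read first. Of 11 NKT markers 10 could be tested, and 8 were higher in NKT cells, none lower, with a median log2 fold change of 1.14 against −0.01 over all genes. Egr2, a factor induced by the NKT receptor, and Slamf6, a homophilic receptor of NKT selection, were not called (−0.10 and 0.24), and Klrb1c, which encodes NK1.1, had too few counts to test. Of 10 T-cell markers, Cd3e was higher (0.66 ± 0.20, standard error) and Cd5 was lower (−0.97 ± 0.21), while Thy1 was at 0.55 ± 0.25 and not called, though it was called without T library 2 (0.81). The Cd3e call was lost without T library 1 (0.59) and without T library 2 (0.54), and that of Cd5 with promoter peaks alone (−0.35).

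Zbtb16 was called higher through a single intronic peak. Its gene sum was 55.4, 64.3 and 48.9 CPM in NKT cells, against 12.7, 19.96 and 11.9 CPM in T cells, a log2 fold change of 1.96 ± 0.24 (adjusted p = 7.3e-07, edgeR). The peak at chr9:48817166-48817666 had 48.5, 50.7 and 41.7 CPM in NKT libraries, against 3.28, 4.30 and 0 CPM in T libraries, a log2 fold change of 4.59 ± 0.45. The other tested intronic peak of the gene, at chr9:48739990-48740490, was at −0.04 and its groups overlapped. In the smaller deposited table of 27727 peaks the gene sum of Zbtb16 was at 0.03 and not called. That table shares only 14905 intervals with the larger one, so gene sums from it, here and below, run over partly other peaks.

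The co-receptor genes separated the groups further. Cd4 has one peak in the table, an intronic one at chr6:124884987-124885487, with 296, 239 and 228 CPM in NKT libraries, against 28.5, 38.7 and 28.6 CPM in T libraries. Its log2 fold change was 3.00 ± 0.20, and that of the gene sum 3.06 ± 0.17 (adjusted p = 1.8e-12, edgeR). Mouse invariant NKT cells are CD4+ or lack both co-receptors, and the splenic gate holds CD8 cells that NKT cells do not. The Cd8a gene sum was 3.91, 1.66 and 0.90 CPM in NKT cells, against 10.9, 15.7 and 16.4 CPM in T cells (−3.16 ± 0.52). Its promoter peak at chr6:71373079-71373579, over the window printed above, was at −3.30 ± 0.63. The Cd8b1 gene sum was 0, 0.66 and 1.90 CPM in NKT cells, against 22.6, 7.13 and 14.1 CPM in T cells (−3.61 ± 0.58), and a peak shared by the Cd8b1 and Smyd1 promoters was at −4.81 ± 0.64. In bulk cells of this kind, fewer cells of a type and less accessibility per cell cannot be told apart.

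Of the 10 genes tied to the CD4 and CD8 lineages, 3 were higher and 4 were lower. Eomes, a T-box factor of memory CD8 and NK cells, was lower in NKT cells, at 10.4, 2.77 and 6.80 CPM, against 16.3, 34.9 and 31.6 CPM in T cells (−2.29 ± 0.40). Tox, an HMG-box factor of CD4 lineage development, had 155, 169 and 182 CPM in NKT libraries and 370, 347 and 257 CPM in T libraries (−0.93 ± 0.13). Runx3, a factor of CD8 and cytotoxic cells, was higher at 0.59. Zbtb7b, which encodes the CD4-lineage factor ThPOK, was at 0.32 and not called, as were Crtam at −0.54 and Patz1 at −0.39.

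**Figure D2:**
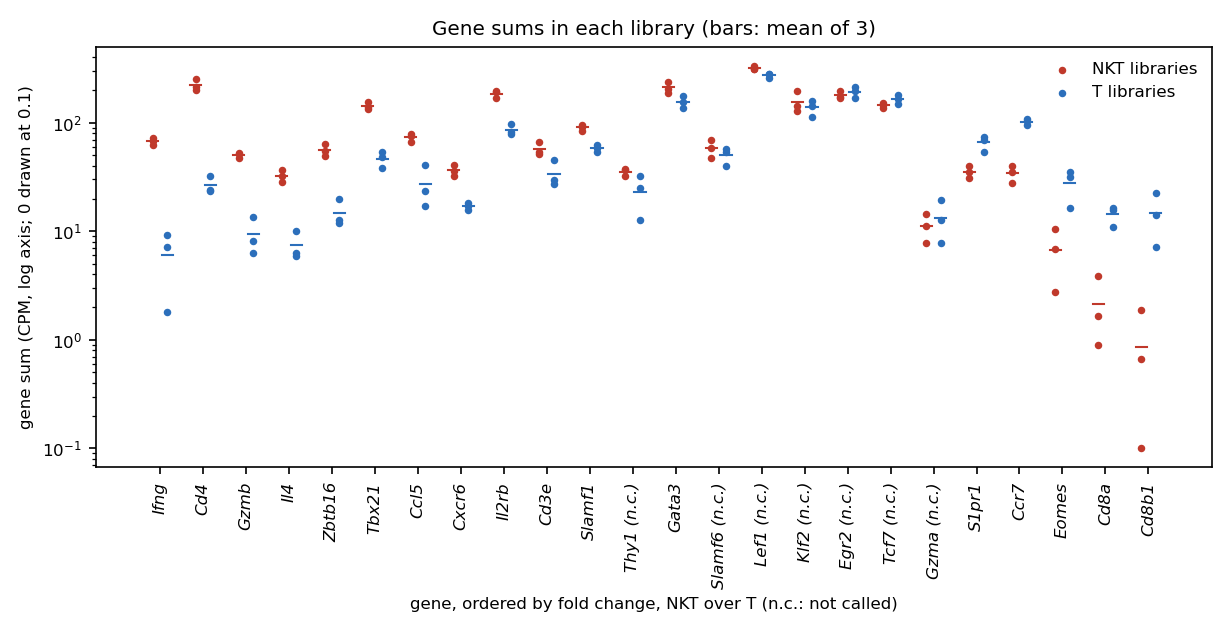
Each gene's summed level in CPM on a log axis, one point per library, with NKT libraries left of T libraries and a bar at the mean of 3; a library with no count is drawn at 0.1. Genes run by log2 fold change from Ifng at 3.27 to Cd8b1 at −3.61, and those marked n.c. did not pass the test.

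Of 16 measured cytokine and chemokine genes, 10 were higher in NKT cells and none was lower, and their median log2 fold change was 0.80. Ifng had 67.7, 71.7 and 62.8 CPM in NKT libraries, against 1.81, 7.13 and 9.29 CPM in T libraries (3.27 ± 0.27, adjusted p = 2.1e-09, edgeR). Csf2, which encodes GM-CSF, had 25.4, 25.8 and 23.4 CPM in NKT libraries, against 0, 4.99 and 2.97 CPM in T libraries (3.10 ± 0.43). For neither gene did the groups overlap, which also held for 39.3% of all genes tested.

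The type 2 cytokine genes were open as well. Il13 had 105, 97.7 and 93.0 CPM in NKT cells, against 18.1, 15.7 and 16.7 CPM in T cells (2.54 ± 0.19). Il4 had 28.7, 36.4 and 32.2 CPM in NKT cells, against 6.33, 9.98 and 5.95 CPM in T cells (2.18 ± 0.30). Most of the Il4 difference was in its exonic peak at chr11:53609450-53609950 (3.16 ± 0.44), while its intronic peak was at 0.95 ± 0.48 and not called. One of the 10 peaks with the largest fold change lay in an intron of Rad50, the neighbour that holds the locus control region of these genes in mouse, at chr11:53656653-53657153. It had 31.5, 35.3 and 32.6 CPM in NKT libraries, against 0, 3.44 and 0.45 CPM in T libraries (4.79 ± 0.49).

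Xcl1 had 33.2, 29.1 and 31.9 CPM in NKT cells, against 1.81, 4.28 and 9.66 CPM in T cells (2.32 ± 0.34). Ccl5, a chemokine of effector lymphocytes, had 67.1, 75.2 and 78.1 CPM in NKT cells, against 23.5, 17.1 and 40.9 CPM in T cells (1.35 ± 0.22). Il10 was higher at 1.08, Tnfsf14 at 1.003, Fasl at 0.59 and Tnfsf10 at 0.46. Tnf, Lta, Ltb, Il2, Ccl3 and Ccl4 were between −0.25 and 0.49 and not called.

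The subset lists differed in how many members were called. Of 19 measured NKT1 genes, 11 were higher and none lower (median 0.68), and of 11 measured NKT2 genes, 7 were higher and 1 was lower (median 0.69). Of 7 measured NKT17 genes, 1 was higher (median 0.10), a median that turned to −0.04 without NKT library 2, −0.03 without T library 2, −0.22 at equal depth and −0.32 in the smaller table. Il17a, Il17f, Il23r and Il1r1 have no peak in the table. The other subset lists moved too. With promoter peaks alone, 9 of 17 NKT1 genes were higher and none lower (median 1.10). Of 8 NKT2 genes measured that way, 2 were higher and 1 was lower (median 0.33). The smaller table gave 8 higher and 2 lower of 16 NKT1 genes (median 0.62), and 4 higher and 1 lower of 9 NKT2 genes (median 0.45). In the 18-library fit 9 of 20 NKT1 and 3 of 12 NKT2 genes were higher. No NKT17 gene was called in the smaller table, with promoter peaks alone or in the 18-library fit. Without NKT library 2, without T library 2 and at equal depth, 1 was higher.

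Tbx21, which encodes T-bet, had 156, 138 and 133 CPM in NKT cells, against 38.0, 54.2 and 47.9 CPM in T cells (1.58 ± 0.16, adjusted p = 3.5e-08, edgeR). Of its 11 tested peaks 7 were higher and none lower, with 6 of the 7 in introns and the largest at chr11:97104130-97104630 (2.47 ± 0.36). Gata3, the master factor of type 2 cytokines, had 238, 190 and 206 CPM in NKT cells, against 156, 175 and 137 CPM in T cells (0.44 ± 0.13). The Gata3 call was lost without T library 1 (0.46), without T library 3 (0.33), with loess offsets (0.31), in the smaller table (0.29) and with promoter peaks alone (0.09). Plac8 at 1.09, Il4ra at 0.69 and Icos at 0.85 were the other called NKT2 genes beside Il4, Il13 and Zbtb16.

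Among 26 transcription factors of the NKT lineage, 12 were higher and 1 was lower. Rora, a nuclear receptor of innate-like lymphocytes, had 424, 408 and 384 CPM in NKT cells, against 148, 152 and 150 CPM in T cells (1.43 ± 0.12). A peak assigned to Rora and Gm15511 was at 4.95 ± 0.45. Bhlhe40, a factor that sustains effector cytokines, was at 1.55 ± 0.18, and Tcf12, which encodes the E protein HEB, and Runx1 were at 1.06 and 0.999. Id3, an inhibitor of E proteins, was lower at −0.54. Tcf12 was at 0.14 with promoter peaks alone and at 0.33 in the smaller table, and was called in neither.

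Of 11 measured genes of the SLAM family and CD1d signals, 5 were higher and none lower. Slamf7, a self-ligand receptor of NK and effector cells, had 186, 208 and 199 CPM in NKT libraries, against 29.9, 44.9 and 55.0 CPM in T libraries (2.14 ± 0.17). Slamf1 had 84.7, 91.7 and 95.7 CPM in NKT libraries, against 57.9, 54.2 and 62.1 CPM in T libraries (0.64 ± 0.15), with 1 of 6 tested peaks called, an intronic one at 2.41 ± 0.36. Cd84 was at 0.84, Fyn, the kinase that acts with SAP, at 0.46, and Prkcq at 0.44. The Slamf1, Cd84 and Fyn calls were lost in the smaller table (0.18, 0.38 and 0.30).

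Cytokine receptors were mixed, with 6 of 18 measured higher and 2 lower. Il2rb, the receptor chain shared by interleukins 2 and 15, had 197, 192 and 167 CPM in NKT cells, against 78.7, 97.0 and 81.4 CPM in T cells (1.11 ± 0.14). Its difference lay in 2 promoter peaks, at 1.70 ± 0.23 and 1.41 ± 0.22, and none of its other 6 tested peaks was called. Il18r1 was at 1.32 ± 0.17, with 115, 200 and 169 CPM in NKT cells and 70.6, 67.7 and 61.3 CPM in T cells, and its partner Il18rap was at 0.96. Il6ra was lower, with 56.7, 44.7 and 46.2 CPM in NKT cells, against 129, 116 and 120 CPM in T cells (−1.34 ± 0.15). Ifngr2 was lower at −1.02, a call lost without T library 2 (−0.86). With promoter peaks alone Il18r1 was at 0.87 and Il6ra at −0.51, and neither was called.

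Of 19 measured NK receptors, 3 were higher and none was lower, 15.8% called, against 23.5% of all genes. Klrg1, an inhibitory receptor of terminal effectors, had 91.8, 77.2 and 74.9 CPM in NKT libraries, against 7.24, 20.7 and 27.1 CPM in T libraries (1.99 ± 0.24). Klra5 was at 2.27 ± 0.49 and Klrc1, which encodes NKG2A, at 0.93 ± 0.22. The other 16 were between −0.54 and 0.61. Klra genes are near-identical copies, so their counts may be split or shared. With promoter peaks alone Klrg1 was at −1.27 and not called.

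Of 19 measured cytotoxic effectors, 7 were higher and 1 was lower. Gzmb had 52.8, 51.6 and 47.5 CPM in NKT cells, against 6.33, 13.6 and 8.18 CPM in T cells (2.43 ± 0.26), and Nkg7 had 132, 108 and 119 CPM in NKT cells, against 21.7, 36.4 and 36.8 CPM in T cells (1.86 ± 0.18). The promoter peaks that hold the printed windows of both genes were at 2.79 and 1.33. Gzma, another granzyme gene, had 7.82, 11.2 and 14.5 CPM in NKT cells, against 12.7, 7.84 and 19.3 CPM in T cells (−0.24 ± 0.36), and its groups overlapped. Prf1, which encodes perforin, was at 0.33 and not called as a gene sum. Stx11, a syntaxin of granule release, was higher at 0.80 (0.20 and not called with promoter peaks alone), and Cst7, an inhibitor of granule cathepsins, was lower at −0.59.

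Of 24 naive and recirculation genes, 8 were lower in NKT cells and 3 were higher, with a median of −0.06. Ccr7, the receptor for lymph node entry, had 28.0, 39.5 and 34.98 CPM in NKT cells, against 95.9, 108 and 104 CPM in T cells (−1.54 ± 0.16, adjusted p = 9.5e-08, edgeR). S1pr1, the receptor for exit into blood, was at −0.84 ± 0.18, Tdrp at −2.14, Nsg2 at −1.56, Igfbp4 at −1.33, Actn1 at −1.15 and Treml2 at −1.06. Ly6c1 at 1.02, Cd27 at 0.94 and Klf3 at 0.56 were higher, with Cd27 at 0.43 and not called in the smaller table. With promoter peaks alone the median of the list was 0.03.

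Gene sums of some members covered peaks that moved in opposite directions. Lef1 and Tcf7 encode HMG-box factors of naive and memory T cells, and neither gene sum was called (0.21 ± 0.11 and −0.20 ± 0.13). With promoter peaks alone Lef1 was called higher (0.64). Of the 20 tested peaks of Lef1, 4 were higher and 5 were lower. An exonic peak at chr3:131199940-131200440 had 3.08, 1.13 and 0.23 CPM in NKT libraries, against 33.9, 13.8 and 21.9 CPM in T libraries (−4.60 ± 0.59), and the exonic peak before it was at −3.95 ± 0.56. An intronic peak further along, at chr3:131208522-131209022, had 110, 78.7 and 76.0 CPM in NKT libraries, against 39.4, 30.1 and 38.8 CPM in T libraries (1.24 ± 0.21).

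Of the 9 tested Tcf7 peaks, 2 were higher and 3 were lower. The intronic peak at chr11:52268501-52269001 had 28.5, 17.7 and 19.6 CPM in NKT cells, against 43.8, 56.8 and 53.5 CPM in T cells (−1.33 ± 0.23). A promoter peak shared with A630014C17Rik had 49.2, 55.1 and 44.1 CPM in NKT cells, against 17.5, 33.6 and 29.4 CPM in T cells (0.84 ± 0.23). At Ccr7, in contrast, all 4 called peaks were lower, the largest change being at an exonic peak (−4.97 ± 0.66), with the promoter peak at −2.17 ± 0.23. Klf2, which drives S1pr1, was at 0.12 ± 0.16 as a gene sum and not called.

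**Figure D3:**
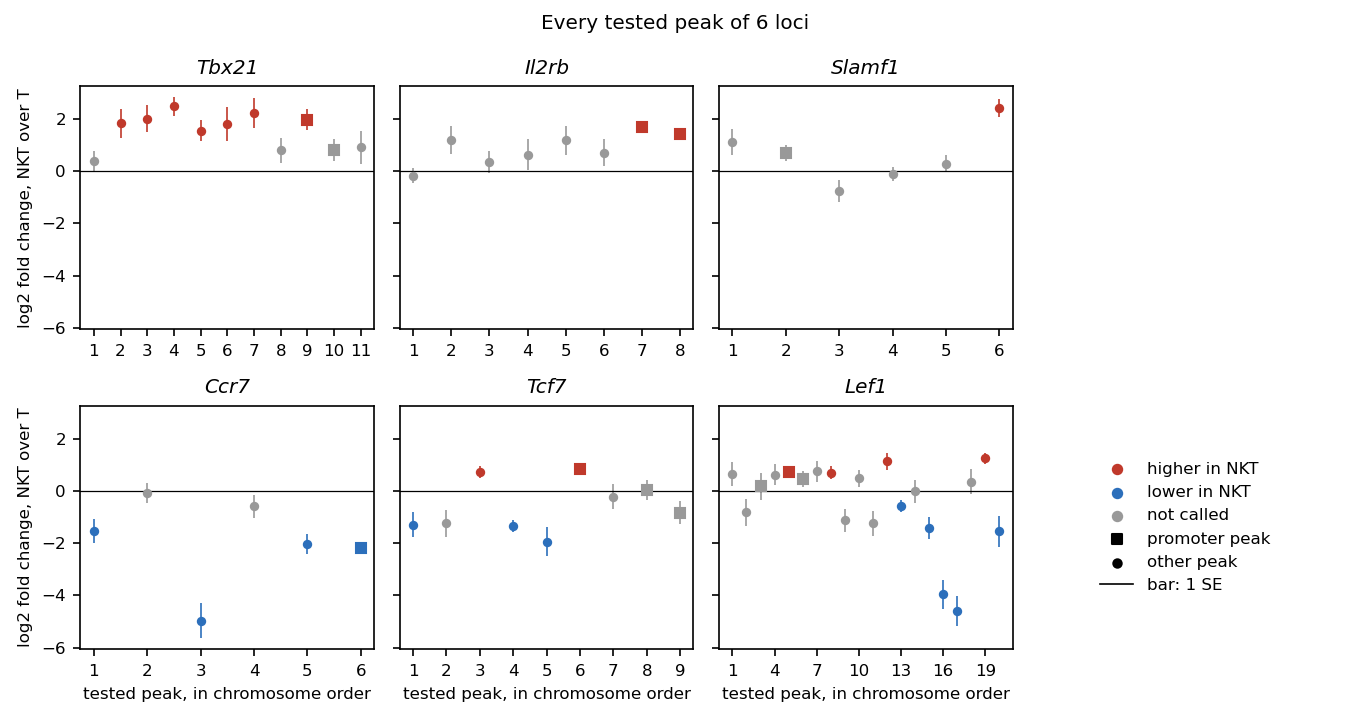
Log2 fold change, NKT over T, of every tested peak of 6 loci in chromosome order, with bars of 1 standard error and squares for promoter peaks. All called peaks of Tbx21, Il2rb and Slamf1 lie above 0 and those of Ccr7 below it, whereas Tcf7 and Lef1 have called peaks on both sides, from −4.60 to 1.24 at Lef1.

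The list of 24 genes of homing and tissue residency held 10 that were higher and 3 that were lower, with a median of 0.51. Cxcr6, a receptor that holds NKT cells in liver sinusoids, had 35.8, 40.9 and 32.3 CPM in NKT cells, against 18.1, 17.1 and 15.6 CPM in T cells (1.12 ± 0.24). Ccr2 was at 1.83 ± 0.25, P2rx7, a receptor for extracellular ATP, at 1.36 ± 0.15 and Cd44, a marker of antigen-experienced cells, at 1.15 ± 0.15. Itga4, the integrin alpha 4 chain of VLA-4, was lower, with 18.2, 18.9 and 21.6 CPM in NKT cells, against 103, 85.6 and 93.6 CPM in T cells (−2.24 ± 0.18). Itga1, the alpha 1 chain of a collagen receptor, was at 1.41 ± 0.18, but in the smaller table it was called in the other direction (−0.90). Cxcr4 was lower at −0.50, and Itgae and Cd69 were at 0.51 and −0.13 and not called.

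Of 33 genes of the T-cell receptor complex and its signalling, 18 were higher and 3 were lower, with a median of 0.47. The largest increase was at Ptpn22, a phosphatase, with a log2 fold change of 1.11 ± 0.13 from 252, 264 and 228 CPM in NKT cells and 101, 116 and 123 CPM in T cells. Cd28, the costimulatory receptor, was at 0.93, Txk at 0.77, Lck at 0.67 and Zap70 at 0.63. Cd247, the zeta chain, was lower at −0.59. Cd81 was lower at −1.49 ± 0.52 on few counts, and the call was lost without NKT library 1 (−1.34) or 2 (−1.15) and without T library 1 (−1.60), 2 (−1.60) or 3 (−1.13). In the 18-library fit 1 gene of this list was called, as higher.

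Of 15 E-protein, Id and HMG factors, 5 were higher and 4 were lower, and the median of 0.11 turned negative with loess offsets (−0.02) and with promoter peaks alone (−0.20). Sox4 was lower, with 11.1, 18.9 and 23.3 CPM in NKT cells, against 77.8, 32.8 and 61.7 CPM in T cells (−1.57 ± 0.26). Tox2 was higher at 0.90 ± 0.16 over all its peaks, while promoter peaks alone gave a call in the other direction (−1.67). Of 30 AP-1, NF-kappaB and immediate early genes, 7 were higher and 1 was lower, 26.7% called, near the background. Over the 15 lists the share called ran between 14.3% for NKT17 genes and 72.7% for NKT2 genes. Atf3 was at 0.90, Fosl2 at 0.69 and Egr1 at 0.52 (0.30 and not called with promoter peaks alone), and Nr4a2, an orphan nuclear receptor, was lower at −1.59 ± 0.21.

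**Figure D4:**
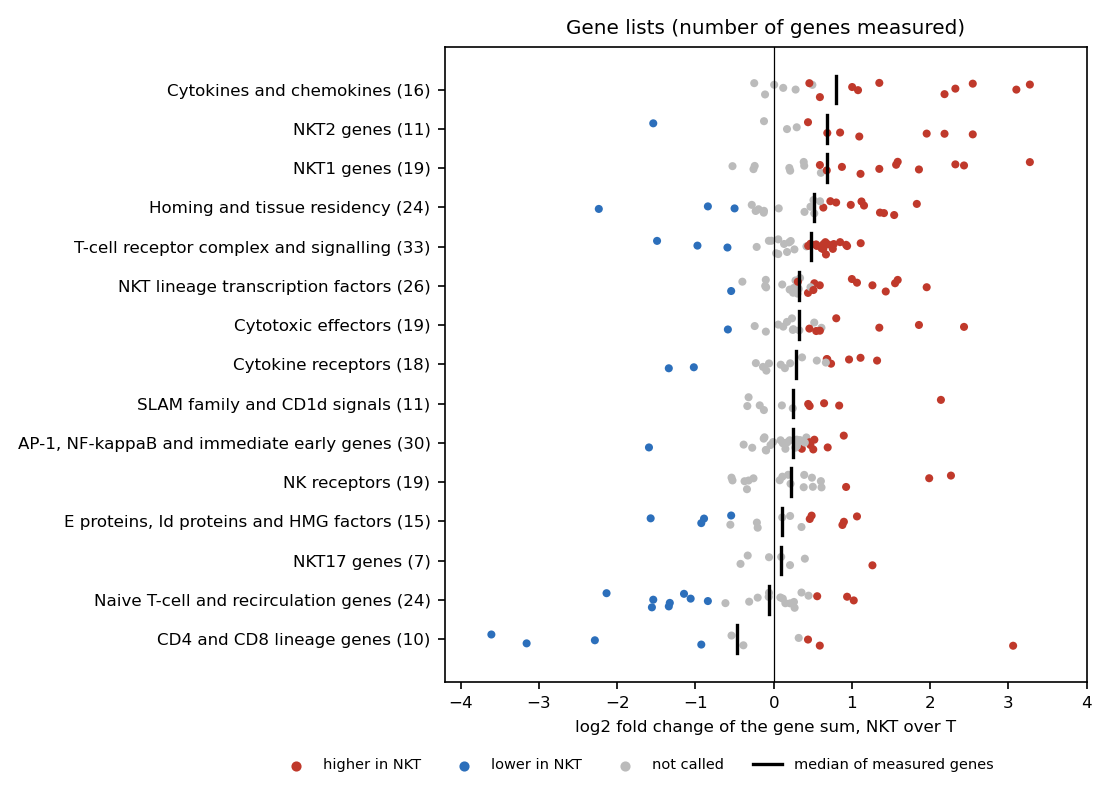
Log2 fold change of each measured gene sum, NKT over T, one row per list with the number of genes measured, and a black bar at the median. Medians run between 0.80 for cytokines and −0.46 for the CD4 and CD8 lineage list, with Cd4 at 3.06 and Cd8b1 at −3.61 as its extremes.

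Markers of other cell types were counted over whole lists. Of 11 hepatocyte markers 2 could be tested and neither was called, their list summed to between 6.15 and 20.5 CPM in NKT libraries and between 18.6 and 36.1 CPM in T libraries, and Alb, Apoa1 and Ttr have no peak. Of 15 myeloid and Kupffer markers 4 could be tested, and 1, Cebpb, was higher (0.84), with sums of 106 to 109 CPM in NKT and 89.8 to 108 CPM in T libraries. Of 11 B-cell markers 5 could be tested and Pax5 was lower (−1.31, lost without T library 2 at −1.07), with sums of 80.0 to 115 CPM in NKT and 114 to 145 CPM in T libraries. Ms4a1 and Cd79a have no peak. Of 9 dendritic-cell markers 6 could be tested, 2 higher and 2 lower, with sums of 250 to 275 CPM in NKT and 310 to 321 CPM in T libraries. Flt3, a receptor of dendritic and progenitor cells, had 4.56, 5.42 and 2.80 CPM in NKT cells, against 29.0, 24.95 and 46.1 CPM in T cells (−3.03 ± 0.35).

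Of 12 endothelial and stromal markers 4 could be tested and 2, Pecam1 (−0.61) and Col1a1 (−0.77), were lower, with sums of 178 to 195 CPM in NKT and 221 to 295 CPM in T libraries. Neither was called in the 9-library fit (−0.60 and −0.78) or without T library 3 (−0.45 and −0.75). The Col1a1 call was also lost without NKT library 2 (−0.87) or 3 (−0.75) and without T library 2 (−0.74), and Pecam1 was at 0.42 and not called with promoter peaks alone. Of 8 erythroid markers 5 could be tested and Tal1 was lower (−1.77), with sums of 66.2 to 73.4 CPM in NKT and 87.5 to 122 CPM in T libraries. Of 13 NK and ILC1 markers 8 could be tested, with Klrg1 and Tyrobp higher and Eomes lower, and sums of 527 to 554 CPM in NKT and 431 to 488 CPM in T libraries. Tyrobp was at 1.28, a call lost without NKT library 2 (1.13). Of 11 gamma delta markers 5 could be tested, with Cd163l1 (24.7, 27.9 and 22.4 CPM in NKT libraries, against 7.24, 8.56 and 3.34 CPM in T libraries) and Maf (0.51) higher, and sums of 378 to 433 CPM in NKT and 292 to 349 CPM in T libraries. The Maf call was lost without T library 1 (0.46). The part of such cells in the results was not tested.

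The NK libraries did not enter the fit and give a further level at the called peaks. At the 5169 peaks higher in NKT cells, the median of the group means was 4.96 log2 CPM in NKT, 3.31 in T and 3.57 in NK cells, and the NK mean lay nearer the NKT mean at 26.3% of peaks. At the 4791 lower peaks the medians were 2.57 in NKT, 4.10 in T and 2.95 in NK cells, and NK was nearer NKT at 71.9%. At peaks not called the share was 43.3%. NK depth was 417107 to 596601 counts, lower than in either group, and its part in these shares was not tested.

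The T-cell receptor alpha locus was followed peak by peak, because the invariant receptor joins Trav11 to Traj18 and the joining deletes the DNA between. The 7 peaks between Trav11 and Traj18 summed to 12.3, 6.26 and 6.74 CPM in NKT libraries, against 27.4, 34.4 and 34.8 CPM in T libraries. The groups did not overlap in this stretch, as at 40.3% of all tested peaks. The NKT libraries had 16, 50 and 59 counts there and the T libraries 25, 40 and 78. Of the 7, only one had enough counts to test, and it was lower (−3.17 ± 0.57). The 14 peaks after Traj18, which include those of the constant gene Trac, summed to 382, 349 and 327 CPM in NKT libraries, against 313, 298 and 324 CPM in T libraries. The 5 peaks before Trav11 summed to 12.3, 25.2 and 30.3 CPM in NKT libraries and 56.9, 31.8 and 26.3 CPM in T libraries, and the groups overlapped. Copy number and accessibility cannot be told apart here, and most T cells have joined other segments of the same locus.

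**Figure D5:**
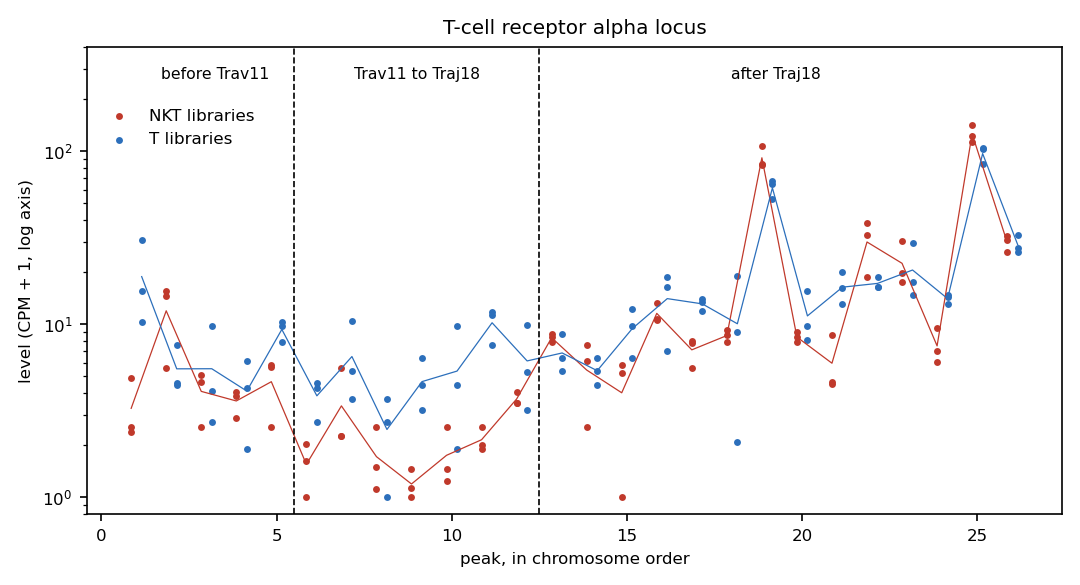
Level of each peak of the T-cell receptor alpha locus in chromosome order, as CPM plus 1 on a log axis, with one point per library and lines through the means of 3. Between the dashed lines, from Trav11 to Traj18, the summed NKT levels of 6.26 to 12.3 CPM lie below the T levels of 27.4 to 34.8 CPM.

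Among genes with at least 20 counts in each library of the higher group and no overlap, the 10 with the largest increase were Gm19596 at 4.29, Mir7662 at 4.17, Gm7904 and Mir1946b, which share one peak, at 3.74, Gm12120 at 3.65, Gm8960 at 3.61, Sema6a at 3.61, Gm49289 at 3.47, Gm25961 at 3.45 and Ptgs1 at 3.39. Of these, Sema6a encodes a semaphorin, with 78.8, 43.9 and 45.4 CPM in NKT cells, against 5.43, 7.13 and 2.23 CPM in T cells, and Ptgs1 encodes cyclooxygenase 1. The 10 with the largest decrease were Gm43652 at −5.92, Dner at −5.88, Stra6 at −5.22, Gm13986 at −4.92, Mei4 at −4.89, Fndc7 at −4.75, Gm35585 at −4.70, Gm47034 at −4.70, Slc4a4 at −4.57 and Pid1 at −4.55. Slc4a4, which encodes a sodium bicarbonate cotransporter, had 1.95, 2.21 and 3.60 CPM in NKT cells over 5 peaks, against 75.1, 67.7 and 62.4 CPM in T cells (adjusted p = 3.7e-12, edgeR). Stra6, which encodes a retinol transporter, had 1.30, 1.33 and 0.90 CPM in NKT cells, against 42.5, 47.1 and 39.8 CPM in T cells.

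Among peaks chosen in the same way, the largest increase was an intronic peak of Sema6a at 6.20 ± 0.63, with 59.2, 27.0 and 32.0 CPM in NKT libraries, against 0, 1.72 and 0 CPM in T libraries. After it came Gm20388 at 5.20, an exonic peak of Mybpc1 at 5.10, Slc5a11 at 5.04 and the Rora and Gm15511 peak at 4.95, then an intergenic peak of chromosome 3 at 4.93, Gm12044 at 4.91, the Rad50 peak at 4.79, and an intergenic peak of chromosome 2 and Ddx39, both at 4.77. The largest decrease was an intergenic peak at chr2:84016106-84016606, with 1.54, 0.50 and 0.23 CPM in NKT libraries, against 53.6, 45.6 and 42.4 CPM in T libraries (−6.59 ± 0.42). The next were in Gabrb1 at −6.22, Plch2 at −6.18, Snrpd3 at −6.16 and Calcrl at −6.06. Tmc3 at −5.98 and Dner at −5.96 were also among the 10, as were a peak near Fam241a at −6.00 and intergenic peaks of chromosomes 15 and 9 at −6.10 and −6.06. No tested peak was without counts in all 3 NKT libraries, while 2 had no count in any T library. As a group the T libraries held fewer counts, which by itself makes such peaks likelier there. Against a floor of 3 counts over the T group, these 2 peaks were at least 27.7-fold and 24.1-fold higher in NKT cells.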

How the data were processed

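Chromatin accessibility was measured in 18 libraries, of which 3 NKT and 3 T libraries were compared. The deposited table of whole-number read counts per 500-bp peak was analysed, unnormalized. The authors also deposited log2 CPM values and peak annotations. The log2 CPM values were not used for tests, and classes and symbols were taken from the annotation. MACS2 2.1.2, bedtools, edgeR 3.24.3 and mm10 are named per the submitters' processing notes. The sources used here do not name the aligner, any duplicate removal or Tn5 offset, how peaks were selected, or whether positions count from 0 or 1.

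Counts were tested with edgeR 4.0.16 (limma 3.58.1) in R 4.3.3: TMM scaling, filterByExpr, then glmQLFit and glmQLFTest on the 6 libraries, two-sided, with Benjamini-Hochberg adjustment over all features and a threshold of 0.05. The biological coefficient of variation was 0.178 for peaks and 0.133 for genes. A peak given 2 or more symbols (6425 peaks) counted toward each, and 9664 peaks had no symbol. Alternatives included DESeq2 1.42.0. No label says whether a replicate number marks a shared animal or day. Deviations of same-numbered libraries correlated at 0.01, −0.05 and −0.02, and those of other pairs at −0.03 to 0.08. Such values, from 3 libraries a group, cannot decide whether samples were paired. Every pair of libraries differed by more than independent counts would, with a chi-square per degree of freedom of 2.24 or more. Whether reads were counted independently is not known, and whether libraries are technical repeats was not tested. Values after ± are standard errors, taken as the absolute log2 fold change over the square root of the quasi-likelihood F. They include the estimated spread among libraries. Floors cover counting error only.

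The always-named genes, up to 4 called genes per list with the largest fold change, and the 10 genes and peaks with the largest change each way (at least 20 counts in each library of the higher group, groups not overlapping) were named by rule, and other listed genes after their values were seen. Members and lists were chosen with earlier results of these data known. Figures were drawn with matplotlib. Results for a few genes of these lists are not reported here.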

Additional observations from a re-analysis of the deposited data

How the results depend on the processing

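Peak and gene counts stayed within 1.5 times of the main ones (peaks 5169 higher and 4791 lower, genes 2057 and 2053) with RLE size factors, library totals, loess offsets, DESeq2, no filter and a mean count of at least 20. They moved when more libraries entered the fit, which changed the filter and scaling as well as the spread. Over 18 libraries 2130 of 61220 tested peaks were higher and 1072 lower, with 472 and 453 genes. Over the 9 normal ones 3332 and 2503 of 38218 were, with 1034 and 1047 genes. Of the main peak calls 29.1% and of the gene calls 21.7% were made over 18 libraries. Thinned to equal depth, 3277 peaks were higher and 2828 lower. The smaller table gave 3430 higher peaks, promoter peaks only gave 965 and 1097 genes, and asking for a 1-unit log2 change gave 660 and 1098. Leaving out each library gave 3916 to 5971 higher and 2905 to 4690 lower peaks, and 1550 to 2241 higher and 1313 to 2175 lower genes. The cause of these shifts was not tested. The share of calls that were higher was 65.6% of peaks with no filter, against 51.9%, and 42.4% of genes with library totals and 37.5% with the fold minimum, against 50%. With the replicate number as a block 4405 peaks were higher and 3686 lower, and 1906 and 1861 genes. Of all main gene calls, 4 were called in the other direction in the smaller table and 5 with promoter peaks only. Among the named genes these were Itga1 in the smaller table (−0.90) and Tox2 with promoter peaks only (−1.67). With promoter peaks only, Klrg1 (−1.27) and Pecam1 (0.42) turned in sign without a call. The 92 named genes include some not called in the main fit, such as Egr2 and Klf2. Among the 92, 30 lost their call over 18 libraries and 11 over 9. Depth limits the T group most, where 1 count is near 1 CPM in library 1.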

Other observations

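Some genes were called at many peaks in one direction, as counted after the values were seen. Of 1663 genes with at least 2 called peaks, 609 had only higher peaks, 526 only lower ones and 528 both. Smad3, a transducer of TGF-beta signals, had 14 of 20 tested peaks higher in NKT cells and none lower. Ikzf3, a zinc-finger factor of lymphocytes, had 9 of 20 higher, Entpd1, an enzyme that degrades extracellular ATP, 8 of 15, and Nedd9, an adhesion adaptor, 9 of 11. Tox had 10 of 15 lower. Bcl11b, a factor of T-cell identity, had 4 higher and 2 lower of 33, and Foxp1, a factor of quiescence, 3 higher and 5 lower of 33.

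Runs of neighbouring tested peaks with one sign throughout were listed, and 3 of them are given, chosen after their values were seen. A run of 30 tested peaks over Tbx21 and its neighbours, at chr11:97041239-97187537, was positive throughout, with 16 called and a median of 1.08. A run of 13 peaks over Igf1r and Fam169b, at chr7:68144218-68749669, was negative, with all 13 called lower and a median of −3.09. The run with the most peaks was at chr1:88205368-88424939, over the Ugt1a cluster, Mroh2a, Hjurp and Trpm8, where 75 tested peaks were negative and 55 called lower, with a median of −1.56. The 116 peaks deposited there held 61.7, 43.1 and 64.2 of every 100000 counts in NKT libraries, against 150, 179 and 108 in T libraries. The NK libraries had 267, 343 and 439, and the lymphomas 81.6 to 208. Copy number and accessibility cannot be told apart in such a block.

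Lower calls moved with local gene density, counted as RefSeq protein-coding genes starting within 500000 bases of a peak. In the lowest of 5 density classes, with 0 to 6 such genes, 19.4% were lower in NKT cells and 16.2% higher, and in the highest, with 26 to 73, 6.62% were lower and 9.80% higher. At promoter peaks the lower share was 17.7% in the sparsest class and 4.62% in the densest one, with 6.60% and 5.98% higher. The part of this pattern in the gene calls was not tested.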
